A study of Mus musculus with 8 samples.

Results

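The genes described here encode the adhesion receptors and adaptors of the adherens junction in mouse skin epidermis: the cadherins Cdh1 and Cdh3, the catenins Ctnna1, Ctnnb1, Ctnnd1 and Jup, and the nectins Nectin1, Nectin2, Nectin3 and Nectin4. They were taken by gene name from the deposited table of normalised RNA sequencing values, in which all 10 were found among 32574 genes, and all 10 passed the filter on low values. By its title the series is about the control of tissue fluidity in wound repair of skin, and polyA RNA came from epithelial cells collected by fluorescence-activated cell sorting and was made into libraries with the Ovation Solo system. There were 8 libraries in 4 groups of 2: K14 control and Lrig1 control, both labelled wild type, and K14 ablation and Lrig1 ablation, both labelled as carrying a basal lineage ablation. The labels give no age, sex, strain, driver line, ablating agent or time after ablation. K14 is the protein of Krt14, a basal keratin, and Lrig1 marks upper hair follicle stem cells. What role either plays in a label (Cre driver, sort gate or lineage removed) is not stated, so both serve below as names of populations. The labels do not tie the libraries of a group to separate animals, and the p-values therefore reflect the spread between these libraries alone, part of which may be technical.

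Adherens junctions join neighbouring epithelial cells. Classical cadherins bind each other across the cell gap through calcium-dependent ectodomains, and their tails hold p120 catenin (Ctnnd1) and beta-catenin (Ctnnb1) or plakoglobin (Jup), which in turn hold alpha-catenin (Ctnna1) and through it actin. Nectins are immunoglobulin-type adhesion receptors that bind actin through afadin. In epidermis E-cadherin (Cdh1) is made in all living layers, whereas P-cadherin (Cdh3) is known as a cadherin of the basal layer and of the hair follicle.

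Recovered depth ran from 6458636 to 11654135 reads per library. A normalised read count is a read count divided by a factor for its library, and a floor of 3 reads corresponded to 2.12 to 4.23 of these units. This limit covers counting error only, since the reads are not known to be independent molecules. The control pairs were closer to each other than the ablation pairs were: the root mean square log2 difference over tested genes was 0.40 in K14 control and 0.50 in Lrig1 control, against 0.82 in K14 ablation and 0.86 in Lrig1 ablation. On a chi-square per gene, another measure of the distance between paired libraries, the contrast was wider. The control pairs stood at 1.57 (K14) and 2.59 (Lrig1), the ablation pairs at 27.7 (K14) and 39.5 (Lrig1). Whether the libraries of a control pair are technical repeats was not tested. Basal markers were abundant in every library, with Krt5 between 29637 and 80925. Tests below are limma fits on log2(normalised read count + 1) of all 8 libraries with 4 group means, adjusted by the Benjamini-Hochberg method over 18140 tested genes with a threshold of 0.05, and differences are on that log2 scale, on which low genes appear to change less than they did. A fit without 1 library leaves 1 in that group, so the spread it uses comes from the other groups alone. Because the ablation pairs were the wider ones, passing only without an ablation library is not added evidence. The fit to all 8 libraries pools the 4 groups, so the close control pairs lower the spread by which ablation differences are judged.

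In K14 ablation none of the 10 genes passed the threshold against K14 control (limma; 1 had an unadjusted p under 0.05, and edgeR and DESeq2 also called 0). Of all tested genes 0.187% passed in this comparison (0.0992% higher and 0.0882% lower), and 12.8% had an unadjusted p under 0.05. In Lrig1 ablation 3 of the 10 fell, Nectin4, Jup and Nectin1, and 0 rose, where 3.3% of all tested genes fell, 0.766% rose and 4.06% were called in all. An unadjusted p under 0.05 was reached by 9 members and by 20.1% of all tested genes. The median difference of the 10 was -0.68, against -0.02 over all tested genes. Upper-quartile scaling moved the all-gene median to 0.10 and the calls from 139 higher and 598 lower to 206 and 409, with 3 members called. The count of members called rested on single libraries: it was 0 without either Lrig1 control library, 1 without either K14 control library and 5 without either Lrig1 ablation library. The calls over all genes moved with it, to 5 and 6 genes without a Lrig1 control library, 181 without either K14 control library, and 2498 and 2097 (13.9% and 11.8%) without Lrig1 ablation 1 and 2.

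Markers of several cell types also differed between groups. Of 8 suprabasal keratinocyte markers 5 fell in Lrig1 ablation (limma), and their summed normalised read count was 72605 and 67822 in the K14 controls, 82230 and 56948 with K14 ablation, 110338 and 124600 in the Lrig1 controls, and 35290 and 34126 with Lrig1 ablation. In K14 ablation 0 of the 8 passed (limma), with a list median of -0.55. There 5 had an unadjusted p under 0.05, as did 12.8% of all tested genes. In the mean of both ablation effects 5 of the 8 fell (limma). Of 6 endothelial markers 4 fell in Lrig1 ablation, with sums of 80.2 and 60.1, 96.9 and 54.7, 619 and 722, and 54.1 and 133 in the same order of groups, and Kdr, the VEGF receptor gene, was at 0 in both K14 control libraries. Upper hair follicle markers summed to between 7301 and 14265 over the K14 libraries, to 49726 and 51961 in the Lrig1 controls, and to 15759 and 30522 with Lrig1 ablation. Of the 6 tested, 1 was called lower and 1 higher in Lrig1 ablation. These were Krt17, at -0.78 ± 0.17, and Lgr6, at 1.36 ± 0.27 (limma adjusted p = 0.0465 and 0.0332). In this list edgeR called 1 higher and 0 lower, so it did not call the Krt17 fall, and DESeq2 called 1 higher and 1 lower. Of all tested genes 3.3% fell and 0.766% rose in Lrig1 ablation (limma). Krt17 was called higher in K14 ablation, at 1.70 ± 0.17 (limma adjusted p = 0.0159). The 7 myeloid and Langerhans marker genes, of which Epcam is also made by epithelium, summed to between 770 and 1872 over the K14 libraries, to 2646 and 2869 in the Lrig1 controls, and to 976 and 1289 with Lrig1 ablation. Fibroblast marker sums were 85.3 and 92.5 in the K14 controls and 189.8 and 296 in the Lrig1 controls, and lay between 123.3 and 300.1 in the ablation libraries. Between the controls, limma called 3 of 5 tested fibroblast markers higher in Lrig1, and edgeR and DESeq2 each called 2. Of all tested genes limma called 6.52% higher there. T cell marker sums were 675 and 715 in the K14 controls, 226 and 213 in the Lrig1 controls, and between 97.1 and 718 in the ablation libraries. Melanocyte marker sums lay between 311 and 581, erythroid between 9.6 and 44.6 and Merkel cell between 4.3 and 25.6 over the 8 libraries. All members except Cdh3 were highest in the same Lrig1 control libraries, and the part of these cells in their differences was not tested. In bulk RNA, fewer cells of a type and less RNA per cell cannot be told apart.

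**Figure D1:**
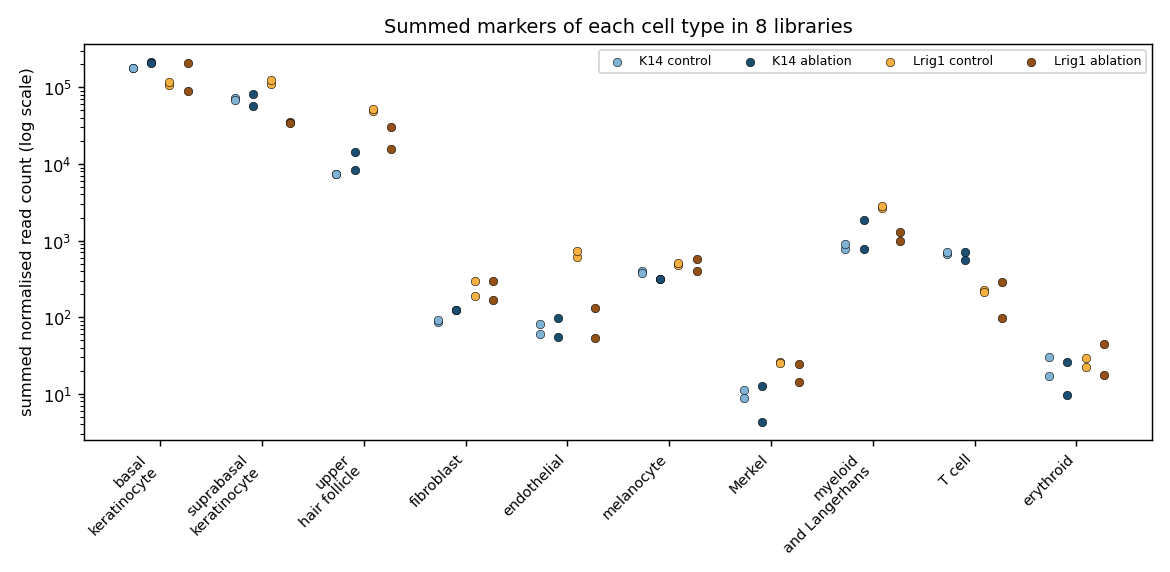
Summed normalised read count (log axis) of the marker genes of 10 cell types, with 1 point per library coloured by group. Suprabasal, upper hair follicle, endothelial and myeloid sums are highest in the Lrig1 control libraries, and the basal sums of the 2 Lrig1 ablation libraries lie apart.

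**Figure D2:**
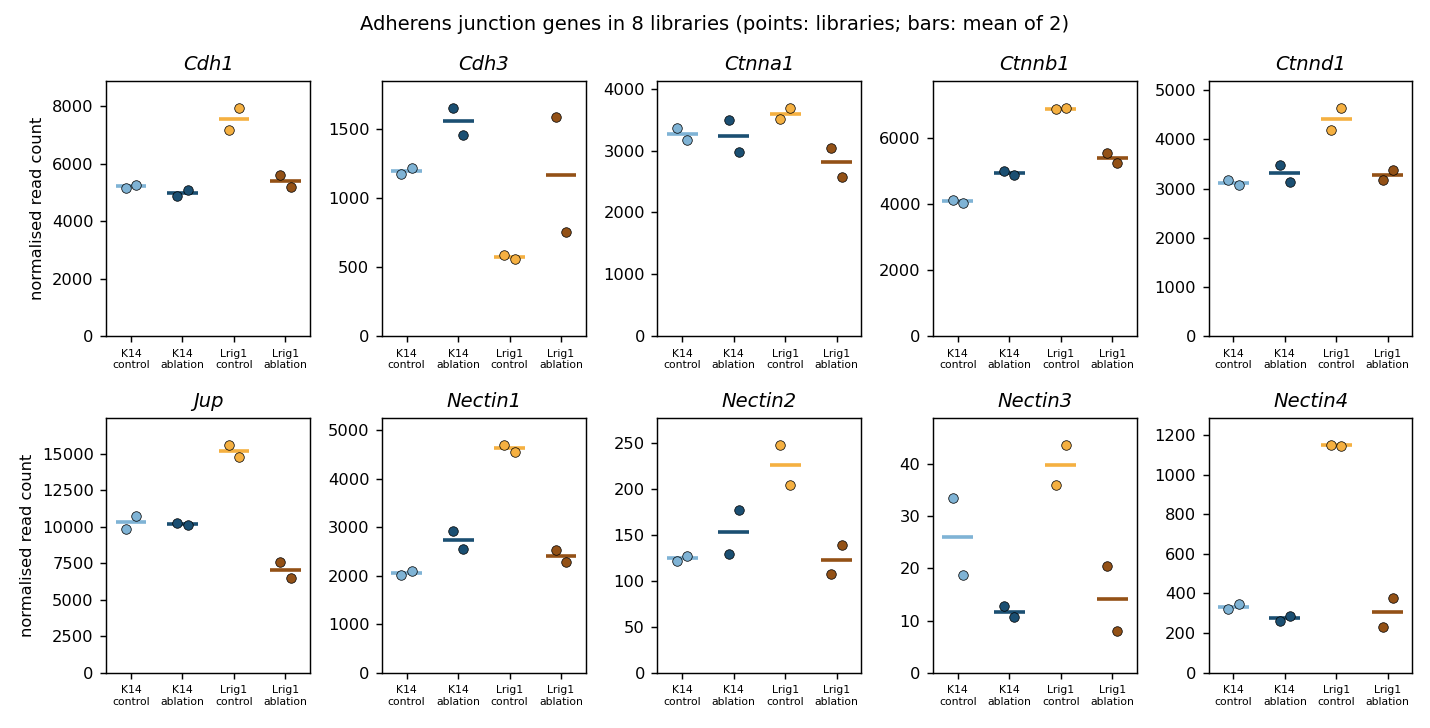
Normalised read counts (vertical axes, from 0) of the 10 adherens junction genes, with 1 point per library, bars for the mean of 2 libraries, and groups along the horizontal axes. Nectin4 sits at 1149 and 1145 in the Lrig1 control libraries and at 233 to 375 in the other 6, and Cdh3 is lowest in the Lrig1 control libraries.

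Cdh1 (ENSMUSG00000000303, GRCm38 chromosome 8, 106603351 to 106670246, plus strand) encodes E-cadherin, the main classical cadherin of epidermis. Its normalised read count was 5172 and 5274 in the K14 controls, 4873 and 5075 with K14 ablation, 7193 and 7935 in the Lrig1 controls, and 5615 and 5193 with Lrig1 ablation. The Lrig1 control libraries were the highest of the 8, and the other 6 lay within a narrow band. In Lrig1 the ablation difference was -0.48 ± 0.15 (SE; limma adjusted p = 0.120), which did not pass. The K14 difference of -0.07 ± 0.15 (limma adjusted p = 0.875) had a 95% interval of -0.42 to 0.27. Without Lrig1 ablation 1 the Lrig1 difference was -0.54.

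Cdh3 (ENSMUSG00000061048, chromosome 8, 106510891 to 106557297, plus strand), which encodes P-cadherin, lies 46.1 kb upstream of Cdh1 on the same strand. Its values were 1174 and 1216 in the K14 controls, 1651 and 1460 with K14 ablation, 583 and 561 in the Lrig1 controls, and 1588 and 753 with Lrig1 ablation. Among the 10 genes it was the one whose Lrig1 control libraries were the lowest of all and whose Lrig1 ablation libraries both lay above control. Its ablation difference was 0.93 ± 0.30 in Lrig1 (limma adjusted p = 0.129) and 0.38 ± 0.30 in K14 (limma adjusted p = 0.629), and neither passed. The Lrig1 value rested on unequal libraries: it was 1.47 without Lrig1 ablation 2 and 0.40 without Lrig1 ablation 1. DESeq2 on recovered reads called it (1.04, DESeq2 adjusted p = 0.0151). The mean of both effects was 0.66 ± 0.21 (limma adjusted p = 0.143). The summed normalised count of 7 basal keratinocyte markers split the same libraries, at 209178 in Lrig1 ablation 1 and 90747 in Lrig1 ablation 2, and Itga6, an integrin of basal cells, was at 9001 and 4516. Their part in the Cdh3 difference was not tested.

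Jup (ENSMUSG00000001552, chromosome 11, 100368958 to 100397763, minus strand) encodes plakoglobin, an armadillo protein shared by adherens junctions and desmosomes. It had the highest normalised read counts of the 10 genes, at 9830 and 10769 in the K14 controls, 10252 and 10152 with K14 ablation, 15609 and 14763 in the Lrig1 controls, and 7578 and 6487 with Lrig1 ablation. The K14 groups overlapped, while every Lrig1 ablation library lay below every other library. Jup fell in Lrig1 ablation by 1.11 ± 0.17 on the log2 scale (limma adjusted p = 0.0156), from a mean of 15186 ± 598 to 7032 ± 772 (SD, n = 2 each). In K14 the difference was -0.01 ± 0.17, with a 95% interval of -0.41 to 0.39. The Lrig1 call ended without either K14 control library (limma adjusted p = 0.0706 and 0.0708) or either Lrig1 control library (0.197 in both cases), and in a fit to the Lrig1 libraries alone (0.0872). The mean of both ablation effects was -0.56 ± 0.12 for Jup (limma adjusted p = 0.0555), which passed with the stricter filter (0.0390), with array weights (0.0274) and in DESeq2 (DESeq2 adjusted p = 0.00120).

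Ctnnb1 (ENSMUSG00000006932, chromosome 9, 120929216 to 120960507, plus strand), the gene of beta-catenin, which also carries Wnt signals to the nucleus, had differences of opposite sign in the populations. Its values were 4118 and 4052 in the K14 controls, 5026 and 4890 with K14 ablation, 6893 and 6916 in the Lrig1 controls, and 5548 and 5245 with Lrig1 ablation. Both K14 ablation libraries were above K14 control and both Lrig1 ablation libraries below Lrig1 control, with differences of 0.28 ± 0.14 (limma adjusted p = 0.453) and -0.36 ± 0.14 (limma adjusted p = 0.212). Neither passed the threshold.

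Ctnnd1 (chromosome 2, 84600071 to 84650765, minus strand), which encodes p120 catenin, the stabiliser of cadherins at the membrane, was 3166 and 3074 in K14 control and 3485 and 3139 in K14 ablation, a difference of 0.08 ± 0.14 (limma adjusted p = 0.839). It was 4192 and 4632 in the Lrig1 controls and 3169 and 3370 with Lrig1 ablation, a difference of -0.43 ± 0.14 (limma adjusted p = 0.144). Ctnna1, which encodes alpha-catenin, the link to actin, was 3362 and 3173 in the K14 controls, 3489 and 2975 with K14 ablation, 3517 and 3685 in the Lrig1 controls, and 3048 and 2581 with Lrig1 ablation. Its K14 groups overlapped, and it had a Lrig1 ablation difference of -0.36 ± 0.16 (limma adjusted p = 0.249) and a K14 difference of -0.02 ± 0.16, whose sign turned without K14 control 1 or K14 ablation 2. All 4 catenins had negative values in Lrig1 ablation, with a median of -0.40, and 1 of the 4 passed.

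Nectin4 (ENSMUSG00000006411, chromosome 1, 171370099 to 171388598, plus strand), an adhesion receptor whose loss of function in people causes a syndrome of ectodermal dysplasia with fused digits, had the largest ablation difference of the 3 members called in Lrig1. Its values were 319 and 349 in the K14 controls, 259 and 287 with K14 ablation, 1149 and 1145 in the Lrig1 controls, and 233 and 375 with Lrig1 ablation. Both Lrig1 control libraries stood above the other 6, and the Lrig1 ablation libraries spanned the range of the K14 groups. Nectin4 fell in Lrig1 ablation by 1.95 ± 0.22 (limma adjusted p = 0.00531), from 1147 ± 3.09 to 304 ± 101 (SD, n = 2 each). The K14 difference was -0.29 ± 0.22 (limma adjusted p = 0.617), and the mean of both ablation effects was -1.12 ± 0.16 (limma adjusted p = 0.0126). It was the 1 member called of 10 in that comparison, where 2.83% of all tested genes were called, 0.805% higher and 2.02% lower, and where 6 members and 18.6% of all tested genes had an unadjusted p under 0.05. Upper-quartile scaling changed the split of all calls of the mean effect from 146 higher and 367 lower to 202 and 302. The Lrig1 call was lost without Lrig1 control 1 (limma adjusted p = 0.0948) or Lrig1 control 2 (0.0975) and the call of the mean effect was lost without any 1 of the 4 control libraries (0.0902 to 0.102) and without the variance trend (0.0543).

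Bases upstream of the start are printed for Nectin4 and Jup, the members that fell in Lrig1 ablation and have an entry in the RefSeq promoter table (GRCm38.p6). They are shown 5′ to 3′ on the strand of the gene, with the short box CACCC (or GGGTG, its reverse complement) in capitals, a sequence read by Krüppel-like factors such as Klf4. Nectin4 covers chr1:171369923-171370098 on the plus strand and Jup covers chr11:100397791-100398040 on the minus strand.
Nectin4: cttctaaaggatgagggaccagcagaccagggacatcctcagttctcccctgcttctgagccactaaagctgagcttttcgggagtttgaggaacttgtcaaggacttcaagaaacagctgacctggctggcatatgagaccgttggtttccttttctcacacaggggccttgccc
Jup: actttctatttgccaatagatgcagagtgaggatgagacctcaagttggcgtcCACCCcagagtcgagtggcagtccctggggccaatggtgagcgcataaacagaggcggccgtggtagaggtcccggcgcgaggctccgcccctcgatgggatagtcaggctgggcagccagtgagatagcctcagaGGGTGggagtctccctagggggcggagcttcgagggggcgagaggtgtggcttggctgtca
Each 250-base window held 2 CACCC boxes, and in Nectin4 both lay in the 74 bases nearest the RefSeq start, left out because GENCODE M21 has them in a transcript. Of 27025 mouse promoters 51.3% held this box. The E-box CACCTG of Snail and Zeb factors (or CAGGTG) was in 17.1% of promoters, the Grainyhead-like box AACCGGTT in 0.12% and the AP-1 box TGANTCA in 6.87%, all searched on both strands over windows of the same length, and none of these 3 motifs occurred in either window. A match is a description of letters only.

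Nectin1 (ENSMUSG00000032012, chromosome 9, 43743984 to 43807461, plus strand), an adhesion receptor that also serves herpes simplex virus for entry, was the most abundant nectin. It was 2013 and 2097 in the K14 controls, 2914 and 2555 with K14 ablation, 4693 and 4550 in the Lrig1 controls, and 2523 and 2272 with Lrig1 ablation. Ablation libraries were all above control in K14 and all below control in Lrig1. Nectin1 fell in Lrig1 ablation by 0.95 ± 0.14 (limma adjusted p = 0.0142), from 4621 ± 101 to 2397 ± 178 (SD, n = 2 each). In K14 its difference was 0.41 ± 0.14, the 1 member value with an unadjusted p under 0.05 there (limma adjusted p = 0.316). The Lrig1 call was lost without either K14 control library (limma adjusted p = 0.0624 and 0.0630), without either Lrig1 control library (0.180 and 0.197) without the variance trend (0.0516) and in a fit to the Lrig1 libraries alone (0.0809).

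Nectin2 and Nectin3 were the least abundant members. Nectin2 (chromosome 7, 19716644 to 19750483, minus strand), a ligand of immune receptors as well as an adhesion molecule, was 122 and 127 in the K14 controls, 129 and 177 with K14 ablation, 248 and 204 in the Lrig1 controls, and 107 and 139 with Lrig1 ablation. Its Lrig1 ablation difference was -0.88 ± 0.23 (limma adjusted p = 0.0763), and without Lrig1 ablation 2 it was -1.06. The K14 difference was 0.28 ± 0.23 (limma adjusted p = 0.647). Nectin3 (chromosome 16, 46387706 to 46498525, minus strand), which pairs with Nectin1 between cells, was 33.5 and 18.7 in the K14 controls, 12.7 and 10.7 with K14 ablation, 36.1 and 43.7 in the Lrig1 controls, and 20.4 and 7.96 with Lrig1 ablation. Both ablation pairs lay below their controls, with differences of -1.04 ± 0.50 in K14 (limma adjusted p = 0.429) and -1.56 ± 0.50 in Lrig1 (limma adjusted p = 0.132), and neither passed. Without Lrig1 ablation 1 the Lrig1 difference of Nectin3 was -2.18. All 4 nectins had negative values in Lrig1 ablation, with a median of -1.25, and their summed normalised read count went from 6126 and 5943 to 2883 and 2793, while in K14 it went from 2487 and 2591 to 3315 and 3030.

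**Figure D3:**
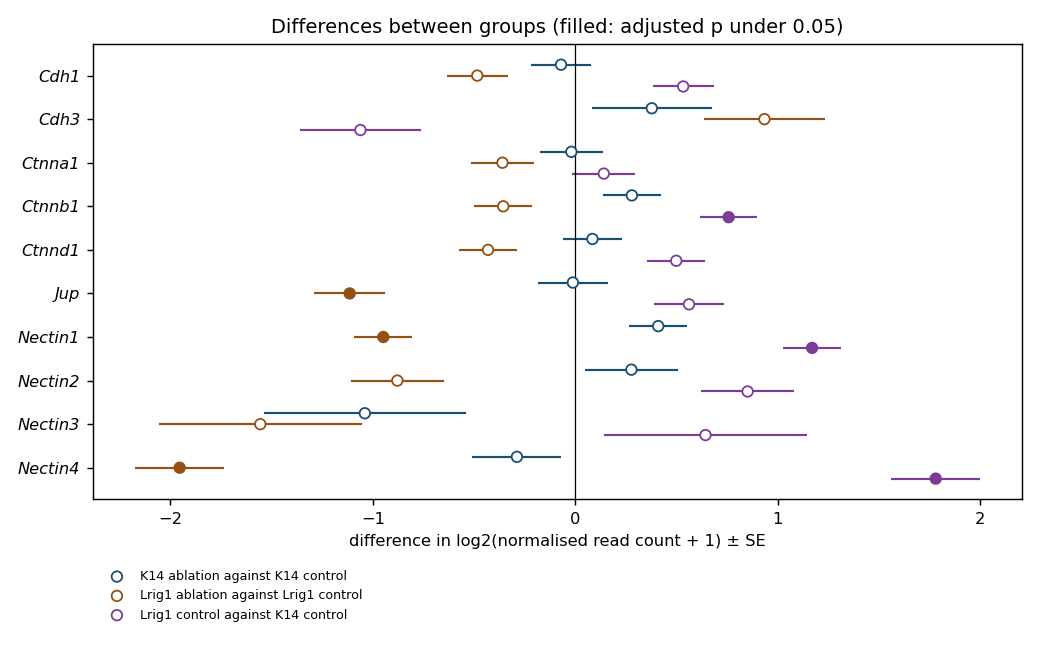
Differences in log2(normalised read count + 1) for each gene in 3 comparisons (horizontal axis, with SE bars), filled where the limma adjusted p was under 0.05. In Lrig1 ablation 9 of 10 genes lie left of 0 and Cdh3 lies right of it, and Nectin4, Jup and Nectin1 are filled. Both comparisons with Lrig1 control use the same 2 Lrig1 control libraries.

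Counted by library, 9 members had both Lrig1 ablation libraries below both Lrig1 controls and 1, Cdh3, had both above, where 26.4% and 21.4% of all tested genes did so. In K14, 4 members had both ablation libraries above both controls and 3 had both below, against 27.4% and 25.7% of all tested genes. The difference between the ablation effects, Lrig1 minus K14, was negative for 9 of 10 members and passed for 0 (limma; 6 at an unadjusted p under 0.05, edgeR 0, DESeq2 3). Of all tested genes 0.198% passed in it, 0.011% higher and 0.187% lower, and 15.0% had an unadjusted p under 0.05. Under upper-quartile scaling the all-gene median of this difference went from -0.03 to 0.10, and 0 genes passed in place of 36. The lowest adjusted p were those of Nectin1, at -1.36 ± 0.20 (limma adjusted p = 0.0590), and Nectin4, at -1.67 ± 0.31 (limma adjusted p = 0.0754), followed by Jup at -1.10 ± 0.25 (limma adjusted p = 0.111). The DESeq2 calls were Nectin1, Nectin4 and Jup, in a fit that called 1.64% of all tested genes. Without either Lrig1 ablation library limma called 4 members, and 11.2% and 3.11% of all tested genes, and without K14 ablation 2 it called 1 member and 144 genes.

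Without ablation the populations differed in 3 of these genes. Nectin4, Nectin1 and Ctnnb1 were higher in Lrig1 control than in K14 control, by 1.78 ± 0.22, 1.17 ± 0.14 and 0.76 ± 0.14 (limma adjusted p = 0.00484, 0.00482 and 0.0176). These were 3 of 10 members, and of all tested genes 8.79% were called, 6.52% higher and 2.27% lower. At an unadjusted p under 0.05 there were 8 members and 24.4% of all tested genes. The Lrig1 control libraries are the same ones that the Lrig1 ablation was compared with, so both sets of values share them. The median of the 10 was 0.60, against -0.0049 over all genes, and Cdh3 was the 1 negative value, at -1.06 ± 0.30 (limma adjusted p = 0.0668). Cdh3 passed under upper-quartile scaling (limma adjusted p = 0.0442) and in DESeq2 (DESeq2 adjusted p = 0.00738), and 8 members passed with array weights, where 37.2% of all tested genes did, and 6 in DESeq2, where 8.93% did. All 3 calls ended when any 1 of the 4 control libraries was left out, which left 1 to 96 genes called in all. Without either Lrig1 ablation library 8 members passed, as did 19.7% and 19.9% of all tested genes. Basal keratinocyte markers were lower in the sums of the Lrig1 controls, at 107216 and 116747 against 180522 and 177686 in the K14 controls, with a list median of -0.80. Of the 7 markers 0 were called lower and 1, Krt15, was called higher (limma; 5 at an unadjusted p under 0.05 in either direction), while edgeR called 0 lower and 1 higher and DESeq2 3 lower and 1 higher. Their part in the Cdh3 value was not tested.

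After ablation, none of the members differed between Lrig1 and K14 past the threshold (limma; 1 at an unadjusted p under 0.05; edgeR and DESeq2 0), where 0.667% of all tested genes did (0.463% higher and 0.204% lower) and 16.4% had an unadjusted p under 0.05. The median of the 10 differences was -0.10, and the widest were Jup, at -0.54 ± 0.17 (limma adjusted p = 0.202), and Cdh3, at -0.51 ± 0.30. The 95% interval was -0.39 to 0.62 for Nectin4 and -0.52 to 0.14 for Nectin1, both called between the control groups. Without Lrig1 ablation 1 the difference was -1.04 for Cdh3, -0.65 for Jup and 0.46 for Nectin4. Without Lrig1 ablation 2, Nectin4 turned to -0.23 and Cdh3 to 0.03.

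Ratios within a library do not depend on how libraries were scaled. Per kb of exon, Cdh3 stood at 0.237 and 0.240 of Cdh1 in the K14 controls, 0.353 and 0.300 with K14 ablation, 0.0846 and 0.0738 in the Lrig1 controls, and 0.295 and 0.151 with Lrig1 ablation. The P-cadherin to E-cadherin balance was thus higher in every ablation library than in its own controls, and the Lrig1 control libraries were lowest. On the log2 scale the ratio differed by 0.45 in K14 and 1.42 in Lrig1, and the mean of these, 0.93, had an exact permutation p of 0.0556 (two-sided, libraries permuted within populations), the smallest that 36 arrangements allow.

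The ratio of Jup to Ctnnb1, plakoglobin to beta-catenin, was 1.93 and 2.14 per kb in the K14 controls, 1.65 and 1.68 with K14 ablation, 1.83 and 1.72 in the Lrig1 controls, and 1.1 and 0.998 with Lrig1 ablation. It was lower in every ablation library than in either control of its population, by 0.29 in K14 and 0.76 in Lrig1 on the log2 scale. In K14 the genes themselves differed by -0.01 ± 0.17 (Jup) and 0.28 ± 0.14 (Ctnnb1), and neither passed. In Lrig1 they differed by -1.11 ± 0.17 and -0.36 ± 0.14, and Jup alone passed. Nectin4 made up 12.8 and 13.4% of the nectin reads in the K14 controls, 7.81 and 9.48% with K14 ablation, 18.8 and 19.3% in the Lrig1 controls, and 8.06 and 13.4% with Lrig1 ablation, and per kb its share ran from 11.1% in K14 ablation 1 to 26.1% in Lrig1 control 2. Since Nectin1 made up 76.6 to 87.9% of these reads, the share depends on Nectin1 as well. In K14 Nectin1 differed by 0.41 ± 0.14 and Nectin4 by -0.29 ± 0.22, and neither passed. The Jup to Ctnnb1 ratio and the Nectin4 share had the same smallest exact permutation p of 0.0556 for the mean ablation difference. Over the 3 ratios tested the Benjamini-Hochberg value was 0.0556. This design could not reach the 0.05 threshold for them.

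**Figure D4:**
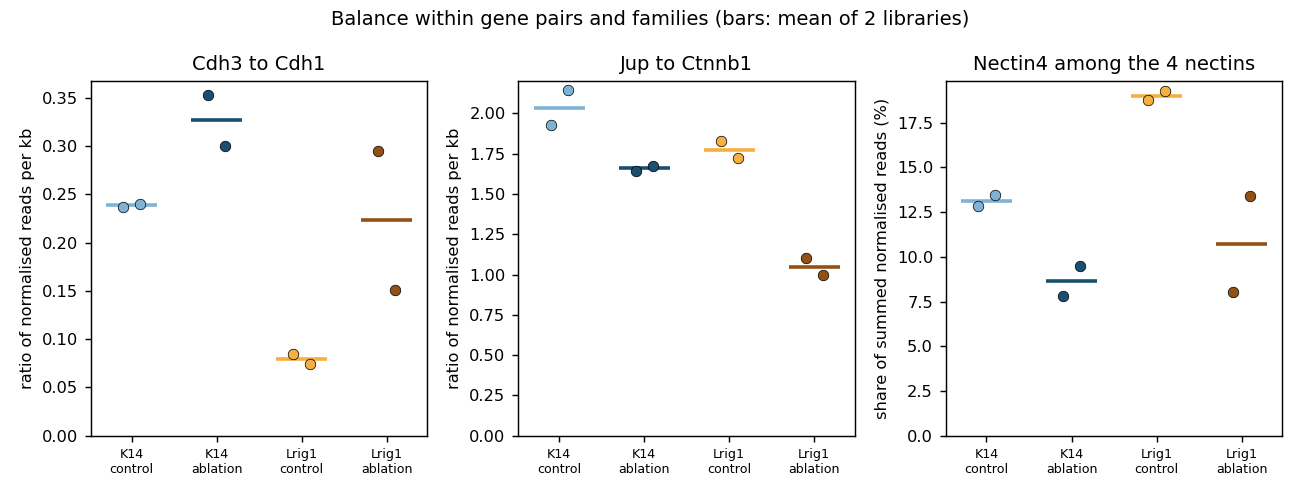
Ratio of Cdh3 to Cdh1 and of Jup to Ctnnb1 in normalised reads per kb of exon, and the share of Nectin4 in the summed nectin reads in percent (vertical axes, from 0), with 1 point per library and bars for the mean of 2. Ablation libraries lie above their controls for Cdh3 to Cdh1 and below them in the other panels.

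Compared per kb of exon, Jup, Cdh1 and Ctnnb1 led in every group and Nectin2 and Nectin3 came last. In K14 control the order was Jup at 1600 ± 103 normalised reads per kb (SD, n = 2), Cdh1, Ctnnb1, Ctnna1, Ctnnd1, Nectin1, Cdh3, Nectin4, Nectin2 and Nectin3 at 2.05 ± 0.82, and the libraries of neighbours did not overlap. In Lrig1 control Nectin1 moved up to the fourth place, at 818 ± 17.8 per kb, and Nectin4 stood above Cdh3, at 306 against 131. In Lrig1 ablation Cdh1 came first at 1181 ± 65.2, but the libraries of Cdh1, Jup and Ctnnb1 overlapped with their neighbours in the order, as did those of Ctnnd1, Ctnna1 and Nectin1. In K14 ablation Ctnna1, Nectin1 and Ctnnd1 overlapped in the same way.

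Partners of the junction were read from lists of genes other than the members. Among 14 tested activators of E-cadherin and junction genes, 5 fell in Lrig1 ablation and 0 rose (limma; edgeR 3 lower, DESeq2 5 lower), with a median of -0.49, where 3.3% of all tested genes fell. Ovol1, an epithelial zinc finger repressor, fell by 2.01 ± 0.23, Grhl3, a Grainyhead-like factor of barrier formation, fell by 1.87 ± 0.26, Cebpa, a differentiation factor, fell by 1.45 ± 0.21 and Klf4, a factor of keratinocyte differentiation, fell by 0.95 ± 0.20 (limma adjusted p = 0.00570, 0.0115, 0.0134 and 0.0381). Klf4 was 8209 and 7846 in the Lrig1 controls and 4475 and 3843 with Lrig1 ablation, and its call was lost in edgeR (edgeR adjusted p = 0.0514), without a filter, under upper-quartile scaling, without the variance trend, in the Lrig1 fit alone, with the replicate number as a block (limma adjusted p = 0.0542) and when any 1 of the 4 control libraries was left out. The other that fell was Grhl1. In K14 ablation 0 of these 14 passed in limma (4 at an unadjusted p under 0.05; edgeR 0, DESeq2 1), with Klf4 at 7753 and 8106 in control and 5179 and 3705 in ablation.

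E-cadherin repressors did not pass in either ablation comparison, 0 of 7 tested in each (limma; 2 in K14 and 5 in Lrig1 at an unadjusted p under 0.05; edgeR and DESeq2 0). The repressor Snai2, which basal keratinocytes express, was 547 and 597 in the K14 controls, 1022 and 754 with K14 ablation, 639 and 575 in the Lrig1 controls, and 889 and 927 with Lrig1 ablation, so all 4 ablation libraries lay above all 4 controls. Snai2 was singled out after its values were seen, and the share of all tested genes with such an order was not computed. In the mean of the ablation effects Snai2 rose by 0.60 ± 0.12 (limma adjusted p = 0.0451), where 0.805% of all tested genes were called higher. There edgeR and DESeq2 each called 1 of the 7 repressors higher. How far this call rests on single libraries was not examined. Zeb1, a repressor of E-cadherin that fibroblasts and endothelium also express, was 1.02 and 0.985 in the K14 controls, under the 3-read floor, and 22.1 and 24.0 in the Lrig1 controls.

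Among catenin relatives, 1 of 6 tested genes fell and 1 rose in Lrig1 ablation, where 3.3% of all tested genes fell and 0.766% rose. Ctnnbip1, which encodes an inhibitor that keeps beta-catenin from its TCF partners, fell by 1.80 ± 0.18 (limma adjusted p = 0.00342), from 685 and 737 to 239 and 173. Ctnnal1, an alpha-catenin relative, rose by 1.17 ± 0.16 (limma adjusted p = 0.0106), from 568 and 553 to 1459 and 1098. Of 17 tested genes of the beta-catenin destruction complex and its TCF/LEF partners, 0 passed in K14 or Lrig1 ablation (limma; 2 and 1 at an unadjusted p under 0.05; edgeR and DESeq2 0), with medians of 0.01 and -0.01.

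Turnover and trafficking genes of cadherins fell in 4 of 25 tested cases in Lrig1 ablation (limma; edgeR 3, DESeq2 4), with a median of -0.30, against 3.3% of all tested genes. Among these were Rab11a, a GTPase of recycling endosomes, which fell by 1.05 ± 0.13, the membrane protease gene Adam15, which fell by 1.04 ± 0.13, and the endocytic GTPase gene Arf6, which fell by 0.74 ± 0.16 (limma adjusted p = 0.00837, 0.00852 and 0.0474). The Arf6 call was lost in edgeR (edgeR adjusted p = 0.0659), under TMM scaling (limma adjusted p = 0.0555), under upper-quartile scaling, without a filter, without the variance trend, with array weights, in the Lrig1 fit alone, with the replicate block (0.0581) and when any 1 of the 4 control libraries was left out. In K14 ablation 0 of the 25 passed (limma; 5 at an unadjusted p under 0.05; edgeR and DESeq2 0). Of 26 tested afadin and actin linkers, Actn1, an actin cross-linker, rose in K14 ablation by 1.1 ± 0.14 (limma adjusted p = 0.0305), from 552 and 633 to 1305 and 1233. This call was lost without the variance trend (limma adjusted p = 0.127), in the K14 fit alone (0.0869), with the replicate block (0.0669), without K14 ablation 1 (0.0785) and when any 1 of the 4 control libraries was left out (0.143 to 0.573). Afdn, the afadin gene, passed in neither ablation comparison, with unequal Lrig1 ablation libraries: it was 9852 and 9378 in the Lrig1 controls and 5834 and 10282 with Lrig1 ablation.

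Of the other cadherin genes 10 were tested, and 2 fell in Lrig1 ablation, where 3.3% of all tested genes fell. Cdh5, the cadherin of endothelium, went from 93.1 and 113 to 4.44 and 3.18 (log2 difference -4.44 ± 0.42, limma adjusted p = 0.00253), and Dchs1, an atypical cadherin of planar polarity, from 16.3 and 29.6 to 0.887 and 2.39 (-3.19 ± 0.61, limma adjusted p = 0.0313). Both Dchs1 values with ablation are at or under the 3-read floor, so its fitted difference is not a measure of fold. Cdh5 was the 1 named partner called in the difference of the ablation effects, at -5.42 ± 0.59 (limma adjusted p = 0.0384). Its Lrig1 ablation values lay just above the 3-read floor of those libraries, 2.66 and 2.39. Between the controls Cdh5 differed by 4.53 ± 0.42, Lrig1 minus K14, so its K14 control level was low too. Both fitted ablation differences of Cdh5 are therefore uncertain as folds. Nectin-like molecules and nectin receptors had 4 tested genes and 0 called in either ablation comparison (limma; 3 in K14 and 1 in Lrig1 at an unadjusted p under 0.05; edgeR and DESeq2 0). The partner genes chosen by rule made 16 calls in these comparisons. Without Lrig1 control 1 or Lrig1 control 2, 0 of the 15 that could be refitted remained (Dchs1 then fell under the filter), and 8 of 16 remained without either K14 control library.

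The genes with the pattern most like a member were those with the smallest root mean square difference between mean-centred log2 values over the 8 libraries, among 9599 other genes with a mean of at least 100. For Nectin4 they were Clic3, a chloride intracellular channel gene (0.08), Sbsn, a gene of the suprabasal layers (0.18), and Pnpla1, a gene of barrier lipid synthesis (0.20). Clic3 was 84.3 and 79.7 in the K14 controls, 63.7 and 71.8 with K14 ablation, 278 and 297 in the Lrig1 controls, and 63.9 and 98.7 with Lrig1 ablation. For Cdh3 they were the purine synthesis gene Atic (0.10), the integrin gene Itga3 (0.10) and the cell cycle kinase gene Cdk1 (0.11). Itga3 was 2178 and 2287 in the K14 controls, 2488 and 2353 with K14 ablation, 1029 and 1008 in the Lrig1 controls, and 2685 and 1259 with Lrig1 ablation. For Cdh1 they were Aplp2, Stx7 and Chp1, each at 0.06. These distances describe 8 libraries and carry no test.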

How the data were processed

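Per the submitters' processing notes, Trimmomatic, STAR, Picard and HTSeq (version 0.11.1) were used with GRCm38 (mm10); no source used here states the settings, strand, annotation release or scaling program. What was deposited is a signal, the normalised read count: each library's counts over 1 factor, from which 100% of values came out as whole reads within 0.001. Ablation columns are named in other words than the labels and were matched because no other group was left, with replicate numbers from the column names. The members and gene lists were chosen with earlier results of these data known.

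limma 3.58.1 (R 4.3.3) was fitted with a variance trend to log2(value + 1) in 1 fit of the 4 group means (4 residual and 4.13 prior degrees of freedom), on genes that held a share of 1e-06 or more in 2 or more libraries. The script was tested on simulated data with the same spread in every group. The ablation pairs here were wider than the control pairs, so that test does not speak to false calls in these data. edgeR 4.0.16 and DESeq2 1.42.0 were run on recovered reads: edgeR called 32 genes in K14 ablation and 588 in Lrig1 ablation. Coordinates and exon lengths (union over transcripts) came from GENCODE M21; without a stated strand, reads of overlapping genes cannot be told apart. All 10 members are named, with up to 4 called genes per partner list (smallest adjusted p in the K14, Lrig1 or difference comparison), and the 3 genes nearest in pattern to Cdh1, Cdh3 and Nectin4. Some partner genes chosen by this rule, and 1 partner list, are not reported here but count among the partner calls. Alternatives covered the pseudocount, filter, scaling, variance model, replicate number, count models and leaving out each library.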

Additional observations from a re-analysis of the deposited data

Results flagged for a closer look

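Ctnnb1, Nectin1 and Nectin2 had both ablation libraries above both controls in K14 and both below both controls in Lrig1. The difference of the effects, Lrig1 minus K14, was -0.64 for Ctnnb1 (limma adjusted p = 0.216), -1.36 for Nectin1 (limma adjusted p = 0.0590) and -1.16 for Nectin2 (limma adjusted p = 0.173). None passed the threshold in that test. Of all tested genes 10.7% showed such opposite movement in either order.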

How the results depend on the processing

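With 2 libraries a group, the calls depended on the control libraries. Of 7 member calls, 0 reversed under any alternative. Leaving out 1 library gave 0 to 5 members called in Lrig1 ablation (3 with all libraries), 0 to 4 for the mean effect (1), 0 to 4 for the difference of effects (0), 0 to 8 between the controls (3) and 0 to 3 between the ablation groups (0), and it kept 0 in K14 ablation. Other settings that moved a count were the fit to the Lrig1 libraries alone (1), no variance trend (2) and DESeq2 (4) in Lrig1 ablation, the stricter filter (2), no variance trend (0), array weights (3) and DESeq2 (3) for the mean effect, a pseudocount of 5 (1), array weights (2) and DESeq2 (3) for the difference, and upper-quartile scaling (4), array weights (8) and DESeq2 (6) between the controls. The causes were not tested.

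Signs turned for members that had not passed. Ctnnb1 in the mean effect went to 0.0071 and Ctnnd1 between ablation groups to 0.0734 under upper-quartile scaling. Ranges on leaving out 1 library crossed 0 in K14 ablation for Ctnna1 (-0.13 to 0.10) and Jup (-0.078 to 0.0536), for Nectin3 in the difference (-1.14 to 0.11), and between the ablation groups for Cdh3 (-1.04 to 0.0323), Ctnnd1 (-0.0929 to 0.058), Nectin3 (-0.50 to 0.76) and Nectin4 (-0.23 to 0.46). The log2 ratio differences ran from 0.69 to 1.17 (Cdh3 to Cdh1) and -0.56 to -0.49 (Jup to Ctnnb1), and the Nectin4 share from -7.72 to -5.04 percentage points.

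Over all genes the counts of 34, 737, 513, 36, 1594 and 121 (in the order K14, Lrig1, mean, difference, controls, ablation groups) ranged over the settings that keep all libraries from 0 to 477, 170 to 975, 203 to 897, 0 to 298, 1104 to 6747 and 6 to 659. On leaving out 1 library, every all-gene share of adjusted calls given as background moved by more than 1.5 times. The shares at an unadjusted p, and those of libraries that do not overlap, were not recomputed in that way. Deviations of same-numbered libraries correlated at -0.05 to 0.08, so little pairing by number was seen. These correlations cannot show whether libraries shared an animal, a preparation or a batch. With a replicate block 3 members were called in Lrig1 ablation, 0 in K14 ablation, 1 in the mean effect, 3 between the controls and 0 in the others, while 6 partner calls were lost, among them those of Actn1, Arf6, Klf4 and Cdh5 in the difference. Of the 16 partner calls edgeR kept 13, DESeq2 16, the fit without a filter 11, upper-quartile scaling 11, no variance trend 9 and the fits to 1 population 4 of 15.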
